A study of Mus musculus with 12 samples.

Results

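Myocardin, serum response factor (SRF), the myocardin-related factors and the KLF, MEF2, GATA, FOXO and TCF21 factors that act with or against them were followed in mouse vessels over 7 days of angiotensin II. The 10 genes, Myocd, Srf, Mrtfa, Mrtfb, Klf4, Klf5, Mef2c, Gata6, Foxo4 and Tcf21, were chosen by name as known regulators of the smooth muscle programme and make up 10 of the 30713 genes measured singly. The choice was made with earlier results of these data known, so their counts beside all tested genes are descriptive. SRF binds a short DNA motif, the CArG box, in the promoters and introns of contractile genes, and it is a weak activator by itself. Myocardin, which smooth and cardiac muscle express, and the more widely expressed MRTF-A and MRTF-B dock on SRF and switch those genes on. MRTFs are held in the cytoplasm by monomeric actin and enter the nucleus when it polymerises. KLF4 is known to repress the same genes when smooth muscle cells leave the contractile state, and ternary complex factors such as ELK1 compete with myocardin for SRF.

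Total RNA of vessels from male C57BL/6 mice aged 8 to 10 weeks was hybridised to 12 Affymetrix arrays. Day 0 mice were untreated, and the others had received angiotensin II, the pressor peptide of the renin-angiotensin system, from an osmotic pump (1500 ng/kg/min) for 1, 3 or 7 days. Each day had 3 arrays that the labels call biological replicates. No group with a vehicle pump was analysed here, so angiotensin II and the pump cannot be told apart, and the labels do not say which vessel was taken.

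The deposited signals are on a log2 scale with a ceiling of 19.93, and each value below is a log2 signal unless called a change. A gene was tested in limma where its signal was 5.25 or more on at least 3 arrays, a limit set at the 40th percentile. That left 22063 genes. "Passed" means a limma adjusted p (Benjamini-Hochberg over those genes) under 0.05, and changes are given ± SE of the fit. The median signal of the 5222 negative control features lay between 5.91 and 6.14 on the 12 arrays. The positive control median exceeded it by 2.59 ± 0.05 on day 0, 2.25 ± 0.29 on day 1, 1.98 ± 0.14 on day 3 and 1.76 ± 0.49 on day 7 (SD, n = 3 each). All 9 treated arrays lay below the 3 day 0 arrays in this difference, and day 7 replicate 1 was the lowest at 1.20. Centring each array on its median would shift the change of every gene by -0.0345, -0.18 and -0.28 on days 1, 3 and 7. A fit that takes up the difference between the control features is given after the members. The means of 7 smooth muscle markers lay between 14.73 and 15.01 on the day 0 arrays, far over the negative controls, so smooth muscle RNA was present.

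Srf, the DNA-binding factor at the centre of the group, was lower on days 3 and 7. It had a signal of 8.43, 8.66 and 8.60 on the 3 day 0 arrays, 7.41, 7.68 and 8.45 on day 1, 7.48, 6.85 and 7.00 on day 3, and 6.50, 6.14 and 6.53 on day 7. All day 3 and day 7 arrays lay below every day 0 array, while day 1 replicate 3 lay within the day 0 range. The change against day 0 was -0.72 ± 0.26 on day 1, which did not pass (limma adjusted p = 0.192). It was -1.45 ± 0.26 on day 3 (limma adjusted p = 0.0107) and -2.17 ± 0.26 on day 7 (limma adjusted p = 0.00132), a 4.51-fold lower signal. The negative control medians of the day 7 arrays were 6.14, 6.07 and 6.06, close under the Srf signal, so the size of the day 7 change is approximate. In RNA of whole vessels, fewer cells of a type and less RNA per cell cannot be told apart. Without day 1 replicate 3 the day 1 change was -1.02 and passed (limma adjusted p = 0.0279).

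The promoter of Srf holds CArG boxes of its own, and is printed because Srf was the only one of the 10 genes with any in the RefSeq promoter table (build GRCm38.p6). The 150 bases before its start of transcription lie at chr17:46556163-46556312 on the minus strand, with the CArG boxes in capitals.
Srf: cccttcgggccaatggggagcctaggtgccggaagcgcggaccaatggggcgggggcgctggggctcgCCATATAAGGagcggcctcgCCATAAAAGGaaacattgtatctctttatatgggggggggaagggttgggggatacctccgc
The boxes begin 82 and 62 bases before the start. The motif reads as a CArG box on either strand, so 1 search covered both, and the 2 boxes do not overlap. The search covered whole RefSeq promoter windows, from 250 bases before the start to 50 after it, of which the stretch printed is a part. A CArG box occurred in 535 of 32851 such windows (1.63%), and 6 windows (0.0183%) held more than one. Windows were at hand for 6 of the 10 genes: Srf, Mrtfa, Mrtfb, Klf4, Mef2c and Tcf21. No CArG box lies in the windows of the last 5, which says only that these letters are not in those windows.

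Myocd, the muscle-restricted coactivator, had the deepest fall of the group. Its signal was 11.50, 10.68 and 11.49 on the day 0 arrays, 7.89, 8.54 and 9.69 on day 1, 7.98, 7.78 and 7.73 on day 3, and 6.94, 5.74 and 7.94 on day 7. All 9 treated arrays lay below all 3 day 0 arrays. The day 3 arrays lay close together, whereas those of days 1 and 7 were each spread over more than 1 log2 unit. The change was -2.51 ± 0.57 on day 1 (limma adjusted p = 0.0449), -3.39 ± 0.57 on day 3 (limma adjusted p = 0.00855) and -4.35 ± 0.57 on day 7 (limma adjusted p = 0.00182). These correspond to signals 5.70-fold, 10.5-fold and 20.4-fold lower than on day 0. Ranked from the lowest change of the 22063 tested genes, Myocd stood at 28, 30 and 28 on days 1, 3 and 7. On day 7 replicate 2 its signal lay under the negative control median, so the size of the day 7 change is approximate.

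The day 1 call of Myocd rested on few settings. Leaving out 1 array at a time, it passed in 3 of 12 fits. It missed without day 0 replicate 1, 2 or 3 (limma adjusted p = 0.132, 0.0831 and 0.157), without day 1 replicate 1 or 2 (0.151 and 0.157), without day 3 replicate 1, 2 or 3 (0.0642, 0.0734 and 0.0695) and without day 7 replicate 1 (0.0517). The estimate stayed between -3.00 and -2.10 over those fits. Quantile normalization gave -2.63 (limma adjusted p = 0.0689) and centred arrays -2.55 (0.0535). At the unaltered estimate the call was also lost without the filter (limma adjusted p = 0.0565) and with the 6 arrays of the comparison alone (0.0874).

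Mrtfb, which codes for MRTF-B, showed a smaller fall that passed on day 7. Its signal was 9.09, 8.79 and 8.95 on day 0, 8.95, 8.47 and 8.98 on day 1, 8.16, 8.55 and 8.23 on day 3, and 7.73, 8.43 and 8.37 on day 7. The day 3 and day 7 arrays all lay below the day 0 arrays, and day 1 overlapped them. The change was -0.15 ± 0.21 on day 1 (limma adjusted p = 0.874), -0.63 ± 0.21 on day 3 (0.0855) and -0.77 ± 0.21 on day 7 (0.0289), the last a 1.71-fold lower signal. The day 7 call was lost without day 0 replicate 1, 2 or 3 (limma adjusted p = 0.0886, 0.0524 and 0.0725) or day 7 replicate 1 (0.0732). Without day 7 replicate 1 the day 3 change of -0.63 passed (limma adjusted p = 0.0320).

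Mrtfa, which codes for MRTF-A, had a signal of 6.52, 6.45 and 6.50 on day 0, 6.47, 6.36 and 6.64 on day 1, 6.44, 6.39 and 6.41 on day 3, and 6.34, 6.16 and 6.50 on day 7. These are all over the negative control median, but by less than 1 log2 unit. The changes were 0.00068 ± 0.098, -0.077 ± 0.098 and -0.16 ± 0.098 on days 1, 3 and 7, none of which passed. The 95% intervals ran from -0.22 to 0.22 on day 1, from -0.30 to 0.14 on day 3 and from -0.38 to 0.062 on day 7. A signal so near the background cannot show a large fall.

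Within an array, the change of Myocd could be set against that of each MRTF. The change of Myocd less that of Mrtfa was -2.51 ± 0.82 on day 1, -3.32 ± 0.11 on day 3 and -4.19 ± 0.93 on day 7 (SD, n = 3), and each treated array showed this difference below the day 0 arrays. Against Mrtfb the difference was -2.37 ± 0.90, -2.76 ± 0.29 and -3.58 ± 1.21 on the same days. For Srf less Mrtfa it was -0.72 ± 0.44, -1.37 ± 0.30 and -2.01 ± 0.09. The change of Myocd less that of Srf was -1.80 ± 0.38, -1.94 ± 0.22 and -2.18 ± 0.91. The exact two-sided permutation test gave p = 0.1 for each of these, the smallest that 3 against 3 arrays allow, and 0.106 after Benjamini-Hochberg adjustment over 18 such tests. Srf against Mrtfb on day 1 gave an exact permutation p = 0.2, the only one of the 18 whose arrays overlapped day 0. The low signals of Mrtfa on all days and of Srf on day 7 limit what the contrasts with them can show. On day 7 both lay near the negative control median, so the small SD of their difference is no measure of its precision.

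**Figure D1:**
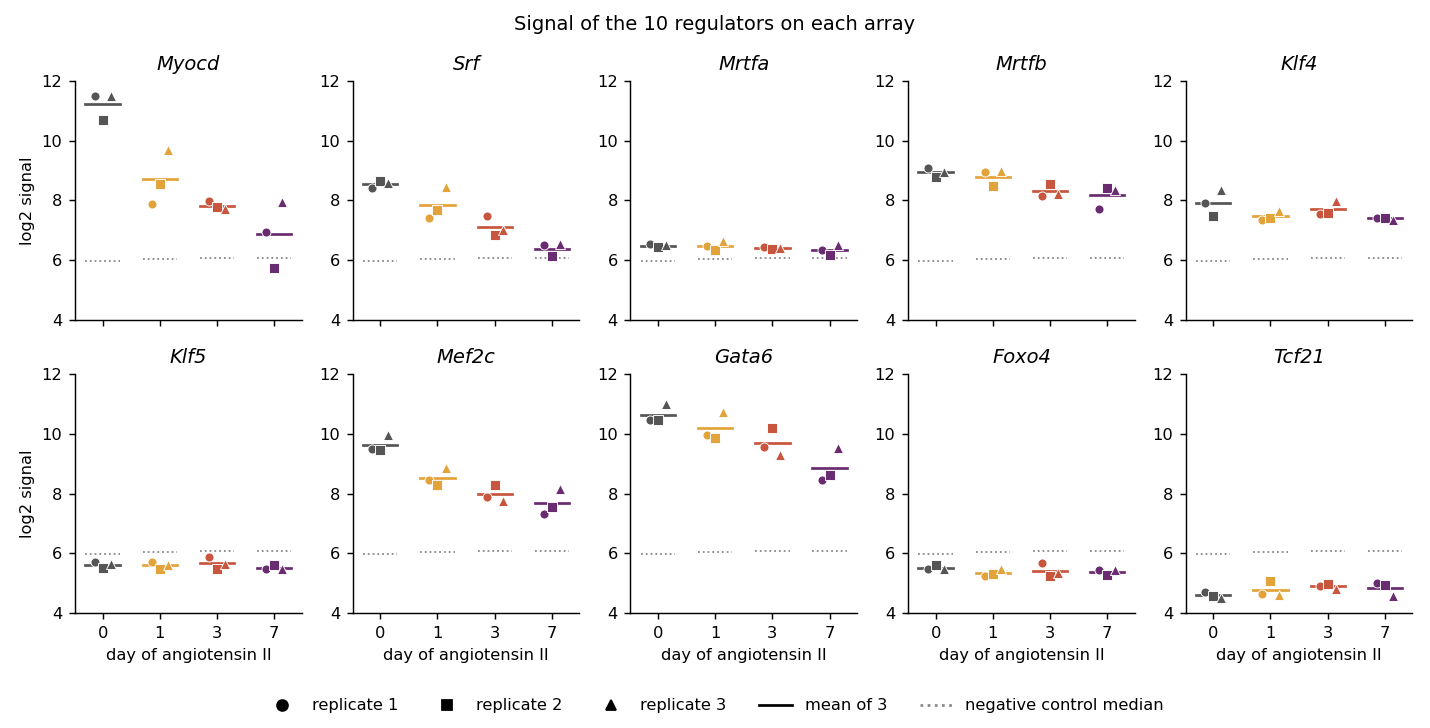
Log2 signal (vertical axis) of each of the 10 regulators on every array, by day of angiotensin II (horizontal axis). Symbols are replicates, bars the mean of 3 arrays, and dotted lines the median of the group's negative control medians. Myocd, Srf, Mef2c and Gata6 step down over the days, whereas Klf5, Foxo4 and Tcf21 lie under the dotted lines on all arrays.

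Mef2c, a MADS-box factor related to SRF that binds A/T-rich sites of muscle genes, fell on each day. Its signal was 9.49, 9.48 and 9.97 on day 0, 8.44, 8.30 and 8.87 on day 1, 7.89, 8.28 and 7.77 on day 3, and 7.33, 7.56 and 8.16 on day 7. All 9 treated arrays lay below the day 0 arrays, and the 3 day 3 arrays also lay below the 3 day 1 arrays. The change was -1.11 ± 0.25 on day 1 (limma adjusted p = 0.0441), -1.67 ± 0.25 on day 3 (0.00586) and -1.96 ± 0.25 on day 7 (0.00162), the last a 3.90-fold lower signal. The day 1 call missed without day 0 replicate 1, 2 or 3 (limma adjusted p = 0.0912, 0.0940 and 0.160), day 1 replicate 1 or 2 (0.145 and 0.168), day 3 replicate 1, 2 or 3 (0.0628, 0.0573 and 0.0622) and day 7 replicate 2 (0.0572).

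Gata6, a zinc finger factor of adult vascular smooth muscle, fell by day 7. It had a signal of 10.47, 10.46 and 11.01 on day 0, 9.97, 9.87 and 10.73 on day 1, 9.57, 10.20 and 9.29 on day 3, and 8.46, 8.62 and 9.53 on day 7. Day 1 overlapped day 0, and the arrays of days 3 and 7 lay below it. The change was -0.45 ± 0.35 on day 1 (limma adjusted p = 0.648), -0.96 ± 0.35 on day 3 (0.113) and -1.77 ± 0.35 on day 7 (0.00871), the last a 3.42-fold lower signal. The day 7 call held in all 12 fits that left out 1 array (limma adjusted p = 0.0044 to 0.0351).

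Klf4, the zinc finger repressor of contractile genes, did not pass on any day. Its signal was 7.91, 7.49 and 8.35 on day 0, 7.34, 7.42 and 7.66 on day 1, 7.56, 7.60 and 7.97 on day 3, and 7.41, 7.43 and 7.36 on day 7. The day 7 arrays lay below the day 0 arrays, and days 1 and 3 overlapped them. The change was -0.44 ± 0.20 on day 1 (limma adjusted p = 0.308), -0.21 ± 0.20 on day 3 (0.497) and -0.52 ± 0.20 on day 7 (0.0772). Its 95% interval on day 1 ran from -0.89 to 0.0025, on day 3 from -0.66 to 0.24, and on day 7 from -0.97 to -0.074. The day 7 change passed without day 0 replicate 2 (-0.73, limma adjusted p = 0.0288) and with arrays centred on their medians (-0.80, 0.0212).

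On each of the 12 arrays Klf5, Foxo4 and Tcf21 had a signal under the negative control median. Klf5, a growth-linked relative of KLF4, ranged from 5.46 to 5.89, and its changes of -0.014, 0.063 and -0.095 on days 1, 3 and 7 did not pass. Foxo4, a forkhead factor known from mouse cells to bind myocardin and restrain it, ranged from 5.23 to 5.68, with changes of -0.18, -0.10 and -0.13 that did not pass. Tcf21, a bHLH factor of fibroblasts and their precursors, ranged from 4.50 to 5.08, reached the filter on 0 arrays and was not tested. At these signals a change of any of the 3 was not detectable, and their levels have no order.

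Counted together, 2 of the 10 genes fell on day 1 (Myocd, Mef2c), where 1.63% of the tested genes passed as lower, 1.98% as higher and 3.61% either way. On day 3 it was 3 (with Srf), where 7.1% passed as lower, 4.57% as higher and 11.7% either way. On day 7 it was 5 (with Gata6 and Mrtfb), where 13.1%, 12.1% and 25.3% did. No member was called higher on these days. At an unadjusted p under 0.05 there were 3, 5 and 6 members on days 1, 3 and 7, beside 16.4%, 28.2% and 43.4% of all tested genes. The median change of the 9 tested members was -0.44, -0.63 and -0.77 on days 1, 3 and 7, beside 0.0065, 0.079 and 0.095 over all tested genes. Among tested genes with a mean signal of 8 to 10, where Myocd, Mrtfb, Mef2c and Gata6 lie, the medians were -0.043, -0.15 and -0.26. The F test over the 3 days called 4 members, Myocd, Srf, Mef2c and Gata6, and 14.5% of all tested genes. Arrays of the later day all lay below day 0 for 2 members on day 1 (11.5% of tested genes), 6 on day 3 (21.4%) and 7 on day 7 (20.5%). The 6 include Mrtfa, near the background with a change of -0.077. The 7 include the dim Foxo4, with a change of -0.13. Arrays of the later day lay above day 0 for 0 members on day 1 (11.8%), 1 on day 3, the dim Tcf21 (23.3%), and 0 on day 7 (26.6%). All 9 treated arrays lay below day 0 for 2 members (7.78%) and above it for 0 (5.96%). These comparisons share the day 0 arrays.

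Between successive treated days no member passed. For day 3 against day 1 limma called 0 members and 0% of all tested genes, while 2 members and 8.04% of genes had an unadjusted p under 0.05, with Srf at -0.74 ± 0.26 and Mrtfb at -0.49 ± 0.21. The day 3 arrays all lay below those of day 1 for Mef2c alone (6.79% of genes) and above for 0 members (7.04%). For day 7 against day 3 it called 0 members and 0.267% of all tested genes. Srf at -0.72 ± 0.26 and Gata6 at -0.82 ± 0.35 had an unadjusted p under 0.05, as did 12.9% of genes. The day 7 arrays all lay below those of day 3 for Srf and Klf4 (7.97% of genes) and above for 0 members (7.05%). The change of Myocd was -0.88 ± 0.57 for day 3 against day 1 and -0.95 ± 0.57 for day 7 against day 3.

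With the control-feature difference added to the fit as a covariate, 0 members passed on days 1 and 3 and 1 on day 7, Srf (limma adjusted p = 0.049). This difference was lower on all treated arrays than on day 0, so its part and that of the treatment cannot be told apart. Of all 22063 tested genes 1001, 464 and 771 passed on days 1, 3 and 7 in that fit. Myocd then stood at -2.23, -2.89 and -3.66 on days 1, 3 and 7, with limma adjusted p = 0.0868, 0.0893 and 0.0653, and Mef2c at -0.88, -1.26 and -1.41 (0.0745, 0.0599 and 0.0591). Gata6 stood at -1.01 (limma adjusted p = 0.294) and Mrtfb at -0.36 (0.568) on day 7. With the mean of the adipocyte markers as a covariate, 0 members passed on days 1 and 3 and 4 on day 7, all but Mrtfb of those called without it (-0.81, limma adjusted p = 0.0877). Of all tested genes 0, 30 and 1858 passed on days 1, 3 and 7 with this covariate. The changes of Myocd were then -1.06 on day 1 and -2.12 on day 3, those of Srf were -0.011 on day 1 and -0.84 on day 3, and that of Mef2c on day 1 was -0.85.

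**Figure D2:**
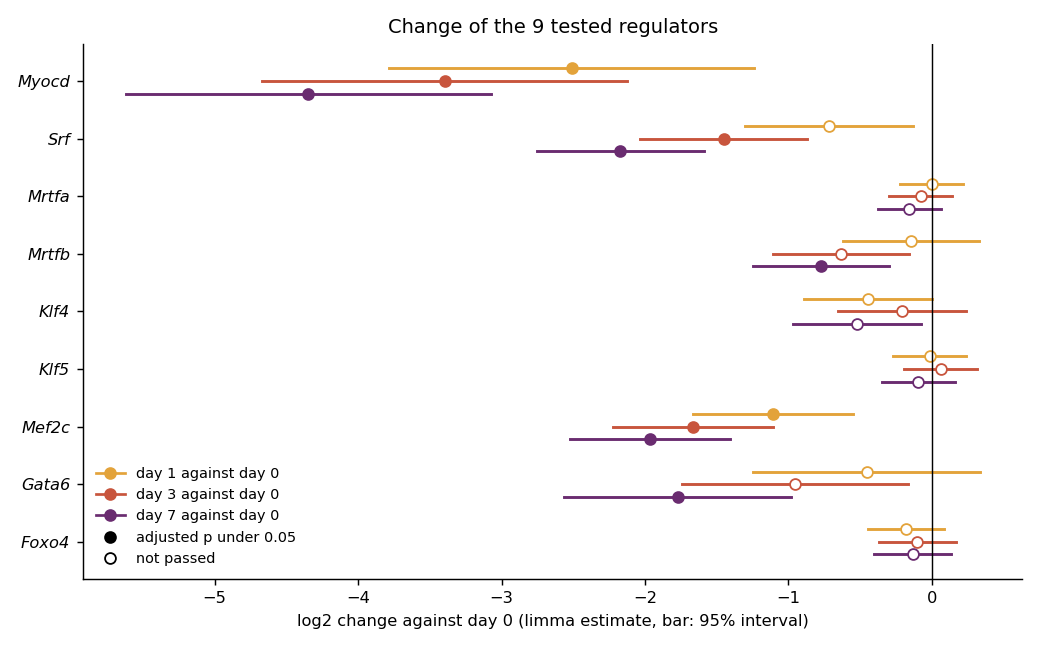
Change against day 0 (horizontal axis, log2 units, limma estimate with its 95% interval) of the 9 tested regulators (vertical axis) on days 1, 3 and 7. Filled points have an adjusted p under 0.05. Myocd reaches -4.35 and Srf -2.17 on day 7, while the intervals of Mrtfa, Klf5 and Foxo4 hold 0 on each day.

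The smooth muscle markers moved with Myocd from array to array. The mean of Myh11, Acta2, Tagln, Cnn1, Lmod1, Des and Smtn was 14.73, 15.01 and 14.87 on the day 0 arrays, 12.96, 13.57 and 14.63 on day 1, 13.58, 12.90 and 12.25 on day 3, and 10.90, 9.51 and 12.41 on day 7. On each treated day the arrays with the highest and the lowest marker mean were also those with the highest and the lowest Myocd, while on day 0 the array with the lowest marker mean had the highest Myocd. None of the 7 markers was under the negative control median on all 3 arrays of any day, and Acta2, named for this after its values were seen, was saturated at the upper end of the scale on each day 0 array. The control-feature difference took the same array order as Myocd on days 1 and 3 (1.94, 2.30 and 2.51, then 2.11, 2.01 and 1.83), but not on day 7 (1.20, 1.98 and 2.10).

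Markers of other cells moved as well. The 9 macrophage markers averaged 7.56 ± 0.21 on day 0, 9.32 ± 0.41 on day 1, 9.35 ± 0.40 on day 3 and 9.26 ± 0.63 on day 7 (SD, n = 3), with 6, 7 and 8 of 9 higher on days 1, 3 and 7. The 8 fibroblast markers averaged 12.24 ± 0.55, 12.82 ± 0.18, 12.93 ± 0.13 and 13.47 ± 0.36 from day 0 to day 7, with 0, 2 and 3 of 8 higher. The 8 endothelial markers averaged 8.87 ± 0.27, 9.34 ± 0.24, 8.89 ± 0.45 and 8.40 ± 0.30, with 1 of 8 lower on day 7 and none passing before. The 7 white adipocyte markers averaged 11.60 ± 0.13, 11.20 ± 0.88, 10.92 ± 0.27 and 11.67 ± 0.37. The 8 brown adipocyte markers averaged 8.31 ± 0.17, 7.18 ± 0.32, 7.61 ± 0.29 and 7.51 ± 0.61 from day 0 to day 7, and of 7 tested 2, 3 and 2 were lower and 1, 1 and 0 higher on days 1, 3 and 7. Of these, Ucp1, the uncoupling protein of brown fat, named after its values were seen, averaged 11.45 on day 0, 6.00 on day 1, 9.76 on day 3 and 8.37 on day 7, and passed on day 1 (limma adjusted p = 0.0493). Dio2, of the same list, went the other way, by 2.01 on day 1 and 2.00 on day 3 (limma adjusted p = 0.0441 and 0.0233). The 10 skeletal muscle markers averaged 6.09 ± 0.40 on day 7 and 5.42 ± 0.16 on day 0, with 6 of 8 tested higher on day 7, and on day 0 the signal of 7 of the 10 did not reach the negative controls on any array. Of the cardiac markers, Myh6, Myl7, Nppa, Myl4 and Mybpc3 were under the negative control median on all arrays of days 0, 1 and 3, and Nppa and Mybpc3 on day 7 too. The 9 cardiac markers averaged 6.83 ± 0.13 on day 7 and 5.91 ± 0.07 on day 0, with 6 of 8 tested higher on day 7. Cardiac muscle also expresses Myocd, Mef2c and Gata6. The part of these cells in the members' changes was not tested.

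**Figure D3:**
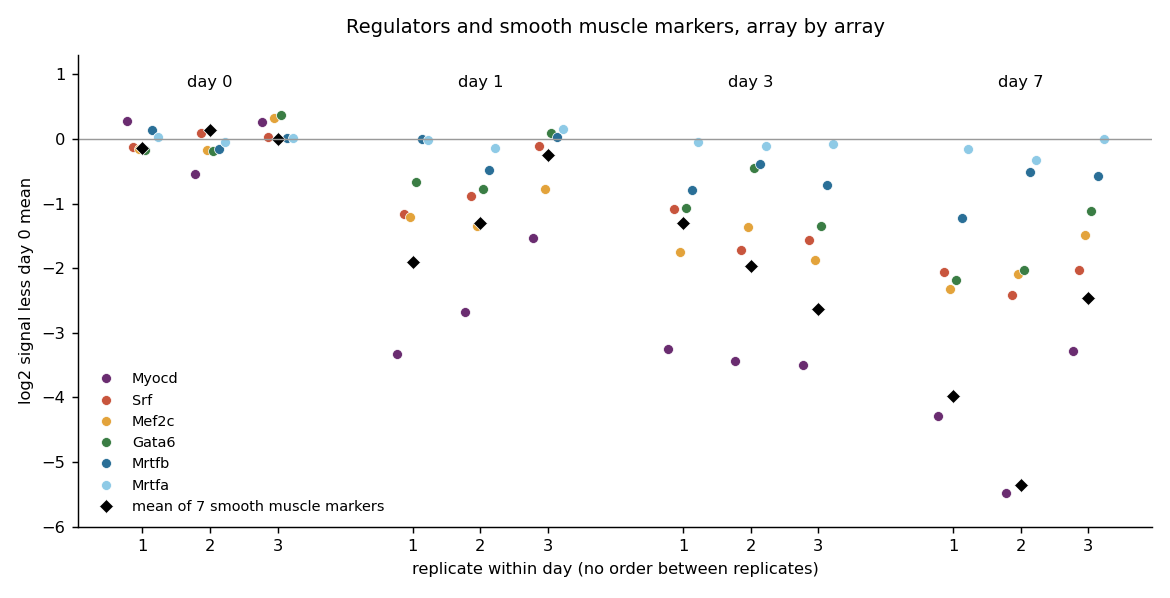
Log2 signal less the gene's day 0 mean (vertical axis) on each array (horizontal axis, 3 replicates per day with no order among them) for 6 regulators, circles, and the mean of 7 smooth muscle markers, diamonds. Myocd and the markers are lowest on day 7 replicate 2 and highest among treated arrays on day 1 replicate 3.

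The counts of the gene lists that follow are to be read against the shares of all tested genes that passed as lower (1.63%, 7.1% and 13.1% on days 1, 3 and 7) and as higher (1.98%, 4.57% and 12.1%).

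The cofactors that work with SRF were taken from a list of ternary complex factors, LIM-only proteins and other partners, of which 19 were tested. On day 1, 3 fell and 1 rose, on day 3, 9 fell, and on day 7, 10 fell. The median change was -0.33, -0.58 and -0.72 on days 1, 3 and 7, against 0.0065, 0.079 and 0.095 over all tested genes. Lmcd1, a LIM and cysteine-rich protein that binds GATA6 and restrains it, had a signal of 11.24, 11.67 and 11.99 on day 0, between 8.42 and 9.96 on day 1, 7.62, 8.35 and 7.26 on day 3, and 6.45, 6.30 and 7.91 on day 7. No treated array reached the day 0 range, and the change was -2.50 ± 0.51, -3.89 ± 0.51 and -4.75 ± 0.51 on days 1, 3 and 7 (limma adjusted p = 0.0319, 0.00392 and 0.00107). Abra, or STARS, an actin-binding protein that promotes MRTF entry to the nucleus, changed by -2.32, -3.17 and -3.17 on these days. Its signal lay under the negative control median on day 3 replicates 1 and 3 and day 7 replicates 1 and 2. The sizes of its day 3 and day 7 changes are therefore approximate.

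Elk3, a ternary complex factor, was the member that rose on day 1, with a signal of 8.45, 8.11 and 8.26 on day 1 against 7.45, 7.38 and 7.28 on day 0. Its change was 0.90 ± 0.14 on day 1 (limma adjusted p = 0.015), 0.50 ± 0.14 on day 3 (0.0534) and 0.23 ± 0.14 on day 7 (0.236). Pias1, a SUMO ligase that acts on several transcription factors, fell by 1.10 ± 0.25 on day 1. Csrp1, a cysteine-rich LIM protein of smooth muscle, fell on days 3 and 7 (-2.11 ± 0.48 and -3.23 ± 0.48), and its relative Csrp2 on day 7 (-3.11 ± 0.59). Fhl1, a LIM-only protein of muscle, fell by 1.49 ± 0.41 on day 3 (limma adjusted p = 0.0463).

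Of 26 tested genes known as SRF targets, mostly contractile and cytoskeletal but with microRNA genes and a long non-coding RNA among them, 0 passed on day 1 in limma (6 had an unadjusted p under 0.05), 9 passed as lower on day 3 and 22 on day 7. The 9 include Filip1l, whose signal did not reach the negative controls on any day 0 array. None was called higher. The median change was -0.90, -1.90 and -3.29 on days 1, 3 and 7, and all 26 estimates were negative on day 7. Myl9, the regulatory light chain of smooth muscle myosin, had a signal of 16.61, 17.51 and 16.74 on day 0, 14.24, 14.70 and 16.10 on day 1, 14.57, 14.06 and 13.19 on day 3, and 9.99, 9.69 and 12.43 on day 7. Its changes were -3.02 ± 0.74 on day 3 and -6.25 ± 0.74 on day 7 (limma adjusted p = 0.0316 and 0.00132). All arrays of days 1, 3 and 7 lay below day 0. Synpo2, an actin-binding protein, fell on days 3 and 7 (-3.98 ± 0.76 and -5.99 ± 0.76). Cnn1 (calponin) and Lmod1 (leiomodin) were the next of the genes that passed on day 3, at -3.25 ± 0.82 and -2.93 ± 0.74. Itga8, an integrin subunit of smooth muscle, and Myh11, the smooth muscle myosin heavy chain, were the largest and the next of those that passed on day 7, at -7.46 ± 1.28 and -6.40 ± 1.07. The day 7 change of Acta2, -3.14 ± 0.69, is a lower bound on its fall, since the 3 day 0 arrays were at the ceiling. Its signal was also 19.93 on each day 1 array and on day 3 replicates 1 and 2, so an earlier fall could have gone unseen.

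On day 1 Myocd had thus passed, in a call that rested on few settings, and the target genes had not. The day 1 estimate of Synpo2, a target, was -2.62 ± 0.76 (limma adjusted p = 0.0991), near the -2.51 ± 0.57 of Myocd. A difference in timing was not tested.

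The target genes were chosen as known SRF targets, so the share of them with a CArG box is no test. CArG boxes lay in the promoter windows of 3 of the 17 cofactors and 3 of the 20 target genes that the RefSeq table holds, beside 488 of all 27025 genes in it (1.81%). One stretch of each of these 6 genes is shown, 40 bases long and before the start of transcription, with the box in capitals and positions in GRCm38.p6: Lmcd1 at chr6:112273528-112273567 (plus strand), Fhl1 at chrX:56779566-56779605 (plus), Fhl2 at chr1:43163968-43164007 (minus), Myl9 at chr2:156775288-156775327 (plus), Vcl at chr14:20929156-20929195 (plus) and Filip1l at chr16:57549165-57549204 (plus).
Lmcd1: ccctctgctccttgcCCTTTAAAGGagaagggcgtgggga
Fhl1: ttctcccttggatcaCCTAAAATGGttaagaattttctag
Fhl2: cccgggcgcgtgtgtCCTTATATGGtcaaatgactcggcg
Myl9: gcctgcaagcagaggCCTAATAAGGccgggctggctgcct
Vcl: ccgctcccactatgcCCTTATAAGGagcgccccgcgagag
Filip1l: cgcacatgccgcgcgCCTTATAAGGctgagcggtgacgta
The changes of these genes differed. Lmcd1, Fhl1, Myl9 and Vcl (vinculin, which links actin to adhesions) fell on day 7, with changes of -4.75, -2.10, -6.25 and -3.94. All 6 are named for the box in their window. Fhl2, another LIM-only protein, did not pass on any day, with changes of 1.01 ± 0.31, 0.64 ± 0.31 and 0.40 ± 0.31 on days 1, 3 and 7. Filip1l, a filamin-interacting protein, averaged 5.35 on day 3 and 5.75 on day 0, under the negative controls on every day 0 array, and its change of -0.41 ± 0.08 on day 3 was measured at that signal. The same box letters stand in the windows of Vcl and Filip1l.

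Of 10 tested genes from a list of immediate-early targets of SRF or ternary complex factors, 1 fell on day 1, and 1 fell and 1 rose on day 3. On day 7, 7 passed as lower, Egr3 among them at a signal under the negative controls. The median changes were -0.52, -0.34 and -1.59 on days 1, 3 and 7. Which factor drives each of these genes was not tested. Ccn1, a matricellular protein gene, had a signal of 18.10, 18.15 and 18.64 on day 0, 15.58, 15.61 and 16.45 on day 1, 13.37, 12.65 and 14.28 on day 3, and 9.38, 11.21 and 11.65 on day 7. The days did not overlap, and the change was -4.87 ± 0.59 on day 3 and -7.55 ± 0.59 on day 7 (limma adjusted p = 0.00299 and 0.000381). The day 7 arrays also showed falls of the orphan nuclear receptor gene Nr4a1 (-4.47 ± 0.82), the matricellular gene Ccn2 (-3.27 ± 0.63) and Fos (-2.55 ± 0.45). Egr1, a zinc finger factor, was lower on days 1 and 7 (-0.99 ± 0.19 and -1.70 ± 0.19), and Egr2 rose by 0.63 ± 0.15 on day 3.

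**Figure D4:**
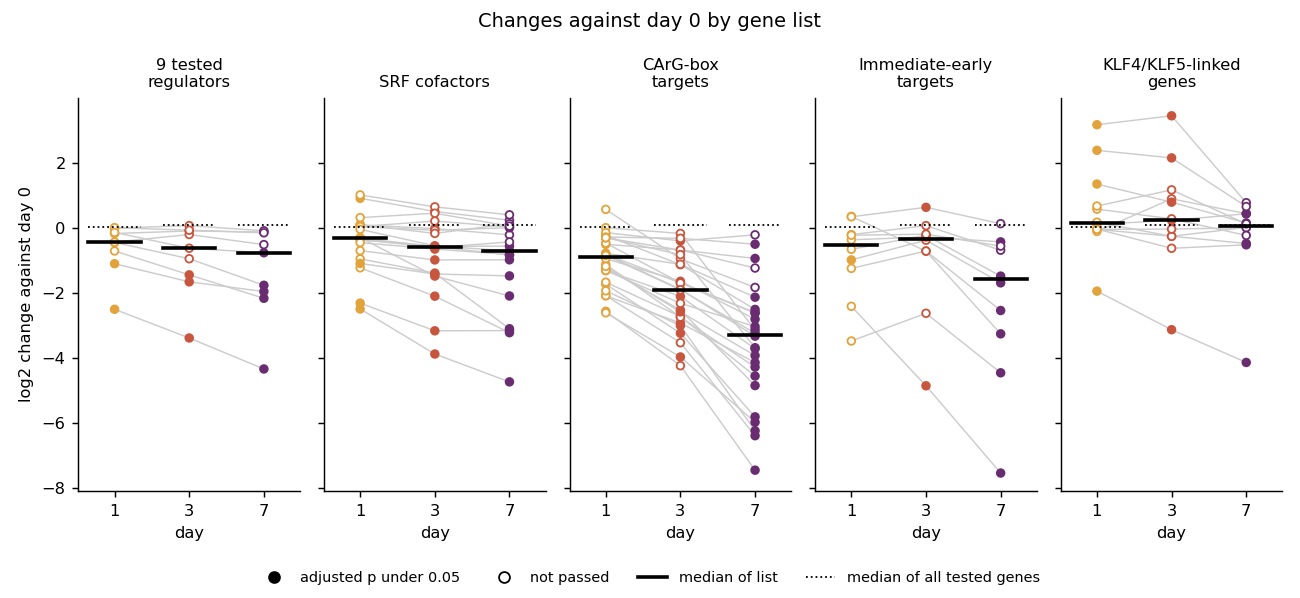
Change against day 0 (vertical axis, log2 units) on days 1, 3 and 7 (horizontal axis) for the 9 tested regulators and 4 gene lists, each point a gene joined by a line over the days. Filled points have an adjusted p under 0.05, heavy bars are list medians and dotted lines the median of all tested genes. The median of the CArG-box targets is -0.90 on day 1, -1.90 on day 3 and -3.29 on day 7, while that of the KLF4 or KLF5 linked genes lies between 0.064 and 0.25.

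Of 14 tested other KLF and SP factors, 0 passed on day 1 in limma (7 had an unadjusted p under 0.05, as did 16.4% of all tested genes), 3 fell on day 3 and 5 on day 7. Klf6, a widely expressed zinc finger factor, had a signal of 12.61, 12.12 and 12.46 on day 0, 10.49, 11.13 and 11.76 on day 1, 9.85, 9.95 and 10.29 on day 3, and 9.28, 10.53 and 10.69 on day 7. No treated array reached the day 0 range, and its changes on days 3 and 7 were -2.36 ± 0.40 and -2.23 ± 0.40 (limma adjusted p = 0.00861 and 0.00566). The changes of Klf12 were -1.10 and -1.43 on these days, and those of Sp1 were -0.67 and -0.70. Klf9 and Klf7 changed by -1.52 and -0.81 on day 7.

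Of 12 tested genes linked to KLF4 or KLF5 in modulated smooth muscle, 3 rose and 1 fell on day 1, 3 rose and 1 fell on day 3, and 1 rose and 2 fell on day 7, the last a share near the 25.3% of all tested genes that passed either way. Mmp3, the stromelysin protease, had a signal of 9.46, 8.93 and 8.67 on day 0, 12.62, 12.47 and 11.47 on day 1, 12.20, 12.63 and 12.57 on day 3, and 9.44, 9.98 and 9.96 on day 7. Its change was 3.17 ± 0.32 on day 1 and 3.44 ± 0.32 on day 3 (limma adjusted p = 0.00275 and 0.00104), and 0.77 ± 0.32 on day 7, which did not pass (0.0944). Tnfrsf11b, the decoy receptor osteoprotegerin, rose by 2.38 and 2.15 on days 1 and 3, and the urokinase gene Plau by 1.34 and 0.79. Myh10, the embryonic-type non-muscle myosin heavy chain often used as a marker of modulated smooth muscle, fell on each day (-1.95 ± 0.41, -3.14 ± 0.41 and -4.15 ± 0.41 on days 1, 3 and 7). On day 7 the galectin gene Lgals3 rose by 0.43 ± 0.12 and Pdgfa fell by 0.49 ± 0.16.

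Of 8 tested MEF2 factors and partners, 1 fell on day 1, 3 on day 3 and 4 on day 7. They were Mef2d (-0.91, -1.08 and -1.20 on days 1, 3 and 7), Camk2d, a calmodulin-dependent kinase (-0.85 and -1.07 on days 3 and 7), Hdac9, a histone deacetylase that represses MEF2 (-0.61 and -0.76 on days 3 and 7), and Mef2a (-2.08 on day 7). Of the GATA relatives and cofactors, Gata2, Zfpm1 and Zfpm2 were tested and 0 passed on any day in limma, with 1, 0 and 0 at an unadjusted p under 0.05 on days 1, 3 and 7. Of 12 tested FOXO genes and targets, 3 fell on day 1, 5 on day 3, and 4 fell and 1 rose on day 7. Fbxo32, a muscle ubiquitin ligase known as atrogin-1, fell on each day (-2.36, -2.84 and -2.53), as did the insulin receptor substrate gene Irs2 (-2.41, -2.09 and -2.73). Foxo3 fell on days 1 and 7 (-0.61 and -0.50), the stress-response gene Sesn1 on days 3 and 7 (-1.04 and -0.87), and the cell cycle inhibitor gene Cdkn1b on day 3 (-0.91). Trim63, another muscle ubiquitin ligase, was the gene called higher on day 7 (0.36), at a signal under the negative controls on day 0, and is named after its values were seen. Of 11 tested bHLH relatives of TCF21, 0 passed on day 1 in limma (4 had an unadjusted p under 0.05), 2 fell on day 3, and 3 fell and 1 rose on day 7. Id2 and Id4, which block bHLH factors from binding DNA, fell on day 3 (-2.33 and -1.12) and on day 7 (-3.48 and -1.13). Tcf12 fell by 0.74 and Tcf4 rose by 0.63 on day 7.

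Genes with the profile most like that of each member called in the F test were found by the root mean square difference over the 12 arrays between log2 signals less their own day 0 mean, among 14780 tested genes without clone-like or predicted symbols. For Myocd they were Rbpms (0.344), Lgr6 (0.349), Ppp1r12a (0.354), Osr1 (0.397) and Mylk4 (0.424). Rbpms, an RNA-binding protein gene, had changes of -2.29, -3.19 and -4.14 on days 1, 3 and 7 beside those of -2.51, -3.39 and -4.35 for Myocd. For Srf they were Pawr (0.219), Nes (0.219), Qsox1 (0.234), Itgb3 (0.244) and Fam13c (0.246), for Mef2c Ttc28 (0.173), Inafm2 (0.183), Sntb1 (0.193), Slc44a2 (0.210) and Prxl2c (0.212), and for Gata6 Golim4 (0.243), Igf1r (0.255), Ntn1 (0.257), Gpc4 (0.266) and Nuak1 (0.269). From a member called in the F test to another tested member, the smallest difference was that of Srf and Mef2c (0.406). That of Myocd and Mef2c was 1.71. Pairs among the members not called in the F test were not compared. These distances describe likeness on arrays that share day 0, and carry no test.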

How the data were processed

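Total RNA of mouse vessels, 3 arrays on each of days 0, 1, 3 and 7, was analysed. The deposited values are log2 signals, which the authors made in Expression Console (Affymetrix) as recorded per the submitters' processing notes. The sources used here give neither its version nor its background correction and normalization. The series text names another array type than the transcript cluster identifiers show, so GEO's platform annotation was used.

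Of 65770 transcript clusters 31054 had 1 gene, 1531 several and 33185 none. Only the first were used. Symbols were updated through Entrez identifiers (Mkl1 and Mkl2 to Mrtfa and Mrtfb), and the cluster with the highest mean was kept for each of 30713 genes. Values were not normalized again. One mean per day was fitted to all 12 arrays with limma 3.58.1 in R 4.3.3 (empirical Bayes, no trend) on the 22063 genes that reached the 40th percentile on at least 3 arrays. The fit was tested on simulated data. CArG boxes were sought in RefSeq promoter windows (GRCm38.p6) with Python 3.11.15.

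All members were named, as were up to 4 called genes per list and comparison with the largest change. The members and lists were chosen with earlier results of these data known. Tried as alternatives were median centring, quantile normalization, a fit without the filter, a 60th percentile filter, the mean of a gene's features, a robust variance trend, a replicate block, covariates for control features and adipocyte markers, the arrays compared alone, and leaving out each array. The number of arrays limits the precision. One gene list is not reported here.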

Additional observations from a re-analysis of the deposited data

How the results depend on the processing

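Srf passed on day 7 in all 12 fits without 1 array and all 10 other alternatives (limma adjusted p up to 0.049). On day 1 the number of members called, 2, was 0 after quantile normalization, with centred arrays, without the filter, with either covariate and in the 6 arrays compared alone, and it lay between 0 and 3 when 1 array was left out. On day 3 the number, 3, was 0 with either covariate and otherwise 3 or 4. On day 7 the number, 5, was 1 with the control-feature covariate and otherwise between 4 and 6, and leaving out 1 array gave 4 to 5. The F test called 0 members with the control-feature covariate in place of 4, and 3 to 4 when 1 array was left out. Both comparisons between treated days gave 0 in each fit. The causes were not tested, beyond the fewer arrays or added term of some fits.

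Counts over all genes moved as well. On day 1, 796 genes passed, against 438 after quantile normalization, 438 with centred arrays, 213 in the 6 arrays alone, 0 with the adipocyte covariate (0 members) and 101 to 1093 when 1 array was left out. With the control-feature covariate 1001 genes passed on day 1 (0 members). On day 3, 2575 passed, against 464 with the control-feature covariate, 30 with the adipocyte covariate, 4519 in the 6 arrays alone and 714 to 3523 without 1 array. On day 7, 5574 passed, against 771, 1858, 2714 and 2826 to 7430 in the same fits. The F test called 3205, against 935 and 2026 with the covariates, and 1011 to 4282. For day 7 against day 3, 59 passed, against 117 after quantile normalization, 89 with the 60th percentile filter, 376 with the control-feature covariate, 1 in the 6 arrays alone and 10 to 268 without 1 array.

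Changes of sign were confined to estimates that had not passed. Quantile normalization gave -0.039 for Mrtfa on day 1, -0.11 for Klf5 on day 3, and -0.066 for Foxo4 and -0.059 for Klf5 in day 3 against day 1. Centred arrays gave -0.034, -0.12, -0.069 and -0.071 for the same. The control-feature covariate gave 0.023 for Mrtfb on day 1. The adipocyte covariate gave 0.016 for Foxo4 and 0.031 for Gata6 on day 1, and 0.071 for Foxo4, -0.042 for Klf5 and 0.061 for Mrtfa on day 3. Leaving out 1 array gave -0.076 to 0.055 for Klf5, -0.075 to 0.068 for Mrtfa and -0.24 to 0.020 for Mrtfb on day 1, and -0.42 to 0.0088 for Klf4 and -0.045 to 0.16 for Klf5 on day 3. In day 3 against day 1 it gave -0.049 to 0.17 for Foxo4 and -0.031 to 0.17 for Klf5, and in day 7 against day 3 -0.12 to 0.10 for Foxo4, -0.27 to 0.084 for Mrtfb and -0.16 to 0.0052 for Mrtfa.

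Deviations of same-numbered arrays from their day means correlated at -0.51 to 0.66. Between days 1 and 7, which were not compared, the correlations were 0.61, 0.36 and 0.66, but they were not over 0.1 for all 3 numbers in any comparison made, so the numbers were not taken as pairs. With the replicate number as a block, 2, 3 and 6 members passed on days 1, 3 and 7 (818, 2785 and 5782 genes), Klf4 being the one added on day 7 (-0.52, limma adjusted p = 0.0489), and the F test called 4. Among tested genes with a mean signal of 8 to 10, where Myocd, Mrtfb, Mef2c and Gata6 lie, the median day 7 change was -0.26 (5th percentile -1.62). At 10 to 12, where no member lies, it was -0.36. At 6 to 8, where Srf, Klf4 and Mrtfa lie, it was 0.00082 (5th percentile -0.80). At 5 to 6, where Klf5 and Foxo4 lie, it was 0.25, so changes of Klf5 and Foxo4 could have gone unseen.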
